A study of Mus musculus with 4 samples.

Results

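Heat shock proteins and chaperones were followed here in early T lineage progenitors (ETP), the earliest T cell precursors of the thymus. The 10 genes were chosen by name, as cytosolic, endoplasmic reticulum and mitochondrial chaperones, inducible against constitutive, and all 10 have a row among the 23361 genes of the deposited table. RNA sequencing covered 4 libraries of female C57BL6 mice, 2 from old mice at 72 weeks and 2 from young mice at 4 to 6 weeks. The labels name no altered allele and no agent, and ETP of both ages were sorted from the thymus as Lin- CD44+ CD25- CD117+ cells and lysed right after the sort. No source used here states that different animals gave the libraries within an age. The p-values below therefore reflect spread from library to library, and that spread may be technical. The table numbers the libraries of each age without tying them to the labels. They are called replicates 1 and 2 here, and the table names the old condition 20m where the labels give 72 weeks.

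Chaperones bind unfolded stretches of other proteins and, spending ATP, let them fold, be handed on or be degraded. HSP70 proteins work in cycles set by J-domain partners such as DNAJB1 and by nucleotide exchange factors such as HSPH1, and HSP90 proteins then mature many kinases and receptors. Some of these genes are always on, whereas others are switched on by heat shock factor 1 (HSF1) when unfolded proteins build up in the cytosol, or by the unfolded protein response when they build up in the endoplasmic reticulum.

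The libraries held 11816480 and 4839341 fragments for old replicates 1 and 2 and 16658865 and 6414917 for young replicates 1 and 2, so replicate 1 was the deeper library at both ages. *Kit*, which encodes CD117, was at 909 and 960 CPM in old ETP and at 769 and 1065 CPM in young ETP. *Il2ra*, which encodes CD25, was at 30.9 and 23.2 CPM in old and at 26.4 and 38.7 CPM in young ETP. CPM are fragments per 1000000 of the library size as scaled by the TMM method. Markers of conventional dendritic cells stood apart between the ages. All 14 of 14 had a higher estimate in old ETP, against 4739 of the 10080 genes tested. Their summed level was 6673 and 22225 CPM in old and 971 and 1483 CPM in young ETP. *Cd74*, the highest by mean level, held much of these sums, at 2763 and 9200 CPM in old and 230 and 507 CPM in young ETP. The ages overlapped in *Flt3*, at 232 and 364 CPM in old and 280 and 236 CPM in young ETP. Markers of NK and innate lymphoid cells summed to 382 and 432 CPM in old and 248 and 242 CPM in young ETP, with 6 of 7 tested higher. *Nkg7*, the tested gene that was not higher, held much of these sums, at 224 and 160 CPM in old and 222 and 207 CPM in young ETP. *Il2rb*, next by mean level, was at 57.9 and 91.4 CPM in old and 9.01 and 7.78 CPM in young ETP. Myeloid markers summed to 1454 and 745 CPM in old and 2064 and 1315 CPM in young ETP. Plasmacytoid dendritic cell markers summed to 202 and 343 CPM in old and 278 and 413 CPM in young ETP. The sums for later thymocyte markers were 243 and 244 CPM in old and 276 and 290 CPM in young ETP. B lineage markers summed to 25.2 to 40.3 CPM over the 4 libraries. Erythroid markers summed to 5.75 to 15.7 CPM and thymic epithelial markers to 1.56 to 15.3 CPM over the 4 libraries, with the epithelial genes *Krt14* and *Foxn1* at 0 in all of them.

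The stretches before the RefSeq starts are shown first, because the inducible members are defined by how they are switched on. RefSeq promoters (GRCm38.p6, 250 bases before to 50 after the start) were at hand for 7 of the 10 members. *Hspa8*, *Hsp90aa1* and *Hsp90ab1* had none, so inducible and constitutive members of the cytosol could not be compared. HSF1 binds inverted repeats of nGAAn, and 2 adjoining repeats read GAANNTTC or TTCNNGAA, either of which was found on either strand in 15.1% of all 32851 promoters. Among the members' 10 promoters, 6 held such a pair, and they belong to 5 of the 7 genes. These are not 6 separate stretches. *Hspa1a* and *Hspa1b* are near-identical, the 2 *Hsph1* promoters overlap, and *Hspd1* and *Hspe1* share a stretch. The 250 bases before the start are printed 5′ to 3′ on the gene's strand, with the matched letters in capitals.
Hspa1a, chr17:34972157-34972406, minus strand: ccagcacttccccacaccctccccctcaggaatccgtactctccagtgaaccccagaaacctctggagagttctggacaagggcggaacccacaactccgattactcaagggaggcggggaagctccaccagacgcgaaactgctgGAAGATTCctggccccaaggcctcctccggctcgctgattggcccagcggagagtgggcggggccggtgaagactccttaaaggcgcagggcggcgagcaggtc
Hspa1b, chr17:34959239-34959488, minus strand: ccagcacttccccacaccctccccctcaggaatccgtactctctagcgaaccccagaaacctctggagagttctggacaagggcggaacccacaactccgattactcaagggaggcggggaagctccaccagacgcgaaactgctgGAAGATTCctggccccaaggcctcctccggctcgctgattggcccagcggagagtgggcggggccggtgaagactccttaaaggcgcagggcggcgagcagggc
Hspe1, chr1:55087898-55088147, plus strand: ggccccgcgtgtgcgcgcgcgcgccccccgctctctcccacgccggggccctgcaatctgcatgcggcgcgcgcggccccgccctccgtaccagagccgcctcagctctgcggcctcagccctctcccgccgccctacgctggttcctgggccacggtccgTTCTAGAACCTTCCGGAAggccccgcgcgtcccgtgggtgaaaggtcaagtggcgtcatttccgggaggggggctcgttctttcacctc
Hspa5, chr2:34771840-34772089, plus strand: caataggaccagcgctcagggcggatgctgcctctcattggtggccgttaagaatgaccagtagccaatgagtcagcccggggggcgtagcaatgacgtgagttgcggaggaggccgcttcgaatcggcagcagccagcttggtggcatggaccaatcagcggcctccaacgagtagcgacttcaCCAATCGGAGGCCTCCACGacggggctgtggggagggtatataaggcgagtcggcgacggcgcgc

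*Hspa1a* and *Hspa1b* carry the same pair, GAAGATTC, 104 bases before the start. Over the whole 300 bases these promoters differ at 4 positions, counted from 1 at the 5′ end, namely C44T, T47C, T249G and C276T. The capitals of *Hspe1* hold overlapping triplets of the same repeat (a pair followed, after 2 bases of any kind, by a further GAA or TTC in alternating order, either strand), found in 0.603% of all promoters, and the same stretch lies on the other strand in 1 of the 2 *Hspd1* promoters, which overlaps that of *Hspe1* on chromosome 1. *Hsph1* also holds a triplet, within the first 50 bases after its start, whereas the promoters of *Dnajb1* held neither a pair nor a triplet. The capitals of *Hspa5* mark the endoplasmic reticulum stress element (CCAAT, then 9 bases of any kind, then CCACG, either strand), found in 0.119% of all promoters (39 of them). A match is a description of letters and was not tested as a binding site.

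Per length, the constitutive cytosolic chaperones led. The length-scaled level is each gene's FPKM as a share of its library's summed FPKM, in parts per 1000000, and values are means over the 4 libraries. *Hsp90ab1*, the constitutive cytosolic HSP90, was at 2720 ± 574 (SD, n = 4 libraries), and *Hspa8*, the constitutive cytosolic HSP70 also called HSC70, at 2520 ± 630. They ranked between 49 and 73 among all genes in every library. *Hspa5* (BiP, the HSP70 of the endoplasmic reticulum) at 675 ± 230, *Hsp90aa1* (the inducible cytosolic HSP90) at 672 ± 203 and *Hspe1* (HSP10, the cap of the mitochondrial chaperonin) at 637 ± 187 followed, closer to each other than their spread over the 4 libraries. Part of that spread lay between the means of the ages, though neither *Hspa5* nor *Hsp90aa1* passed the test given below. *Hspa5* was at 847 ± 126 in old and 503 ± 157 in young ETP (SD, n = 2 each), and *Hsp90aa1* at 497 ± 30.9 in old and 847 ± 10.3 in young ETP. *Hspa5* was thus above *Hsp90aa1* in both old libraries and below it in both young ones. *Hspd1* (HSP60, the barrel of that chaperonin) was at 332 ± 86.8. *Dnajb1*, a J-domain partner of HSP70, at 99.2 ± 42.3 and *Hsph1* (HSP110), which exchanges the nucleotide of HSP70, at 95.8 ± 43.1 lay together. The inducible HSP70 genes came last, *Hspa1a* at 45.9 ± 33.5 and *Hspa1b* at 26.5 ± 19.7. *Hspa1a* was above *Hspa1b* in every library, by 1.85 and 1.55 times in old and by 1.99 and 1.11 times in young ETP.

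**Figure D1:**
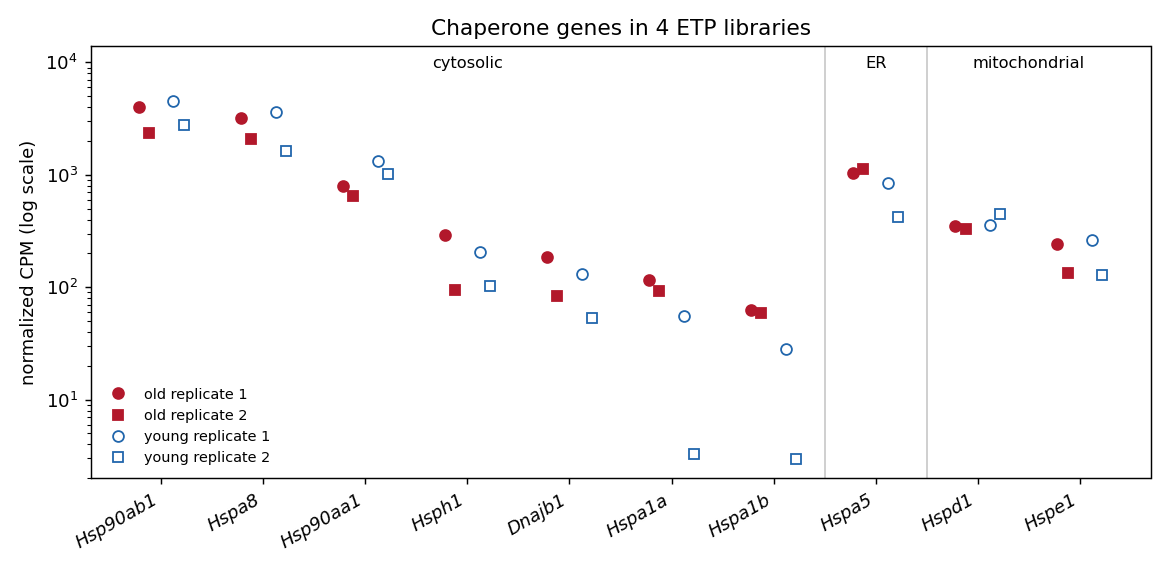
Normalized CPM (log axis) of each of the 10 members in the 4 libraries, old left of young, circles for replicate 1 and squares for replicate 2. *Hspa1a* and *Hspa1b* in young replicate 2, at 3.27 and 2.96 CPM, lie below every other point.

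No member passed the test between the ages. By the quasi-likelihood test of edgeR, adjusted after Benjamini and Hochberg at 0.05, 0 of 10 members were called, as were 0 of 10080 genes tested in either direction (0% higher and 0% lower in old ETP). At an unadjusted p under 0.05 edgeR gave 0 of 10 members, against 4.46% of all genes higher and 0.942% lower in old ETP. DESeq2 called 0 of 10 members, against 2.08% of all genes higher and 0.149% lower, and had 2 members, both higher in old ETP, under 0.05 before adjustment, against 4.99% of all genes higher and 0.972% lower. Both old libraries lay above both young ones in 3 of 10 members, against 16.4% of all genes, and below them in 2 of 10, against 15.7%. The 2 members under 0.05 in DESeq2 were *Hspa1a* and *Hspa1b*, which are also among the 3 above. They are near-identical copies and not independent counts. The members' median log2 fold change, old over young, was 0.17, and that of all genes tested was −0.03. The members' median turned to −0.32 with old replicate 1 left out and to −0.06 with young replicate 2 left out, was 0.51 without old replicate 2 and 0.78 when young replicate 1 was dropped, and was −0.15 on log2(FPKM + 1), where that of all genes was −0.27. Since these are bulk samples, fewer cells of a type and less RNA per cell cannot be told apart in any of the values.

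The inducible HSP70 genes had the largest estimates of the 10. *Hspa1a* was at 115 and 92.1 CPM in old ETP, against 55.6 and 3.27 CPM in young ETP. *Hspa1b*, its near-identical neighbour, was at 62.7 and 59.5 CPM in old ETP and at 28.0 and 2.96 CPM in young ETP. The old libraries were close to each other and above both young ones, and young replicate 2 was far below the rest. That library had 21 fragments for *Hspa1a*, which gives an exact Poisson interval (95%) of 2.02 to 4.99 CPM, and 19 for *Hspa1b*, which gives 1.78 to 4.62 CPM. The interval covers counting error only.

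By edgeR the log2 fold change was 1.80 (SE 1.12) for *Hspa1a*, a 3.52-fold higher mean in old ETP with adjusted p = 1.00. For *Hspa1b* it was 1.95 (SE 0.93), a 3.95-fold higher mean, with edgeR adjusted p = 1.00. DESeq2 gave adjusted p = 0.786 for *Hspa1a* and 0.378 for *Hspa1b*. The size rests on young replicate 2: without it the log2 fold changes were 0.92 and 1.15, and without young replicate 1 they were 4.95 and 4.33. With no filter on low values edgeR called both, along with 2.77% of 17112 genes higher and 0.199% lower in old ETP, at adjusted p = 2.3e-04 for *Hspa1a* and 2.5e-04 for *Hspa1b*. The coding sequences of the pair differ at 8 bases and a gap of 3, an identity of 99.43%, so fragments could be split between them. Summed into 1 row, they gave a log2 fold change of 1.86 (SE 1.07) and an edgeR adjusted p = 1.00.

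**Figure D2:**
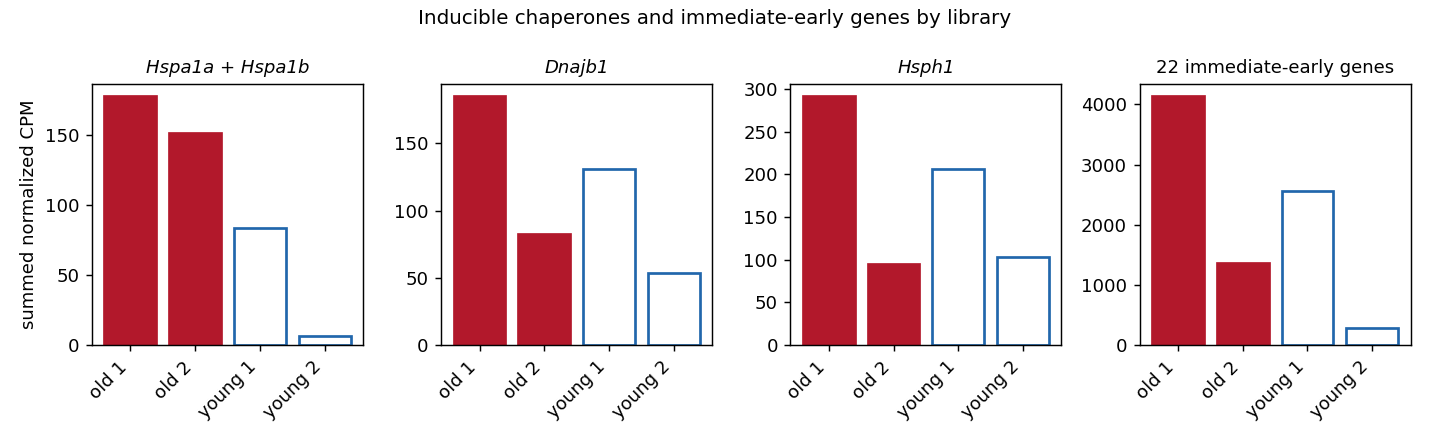
Summed normalized CPM (axes from 0) of *Hspa1a* plus *Hspa1b*, of *Dnajb1*, of *Hsph1* and of 22 immediate-early genes, a bar for each library, old left of young. The first panel reads 178 and 152 CPM in old against 83.6 and 6.22 CPM in young ETP, and in the last panel replicate 1 stands above replicate 2 at both ages.

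Other stress-responsive members were higher in replicate 1 at both ages. *Dnajb1* was at 185 and 83.0 CPM in old ETP and at 131 and 53.5 CPM in young ETP, so that replicate 1 was 2.23 times replicate 2 in old and 2.45 times in young ETP. *Hsph1* was at 292 and 95.2 CPM in old and at 206 and 103 CPM in young ETP, with replicate 1 at 3.07 times replicate 2 in old and 1.99 times in young ETP. The ages overlapped in both genes, and edgeR gave log2 fold changes of 0.54 (SE 0.58) for *Dnajb1* and 0.32 (SE 0.62) for *Hsph1*, each with adjusted p = 1.00. *Hsph1* was lower in old ETP on the FPKM scale, at −0.083, and both turned lower without old replicate 1, at −0.16 and −0.70.

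Over the 10 members, replicate 1 exceeded replicate 2 at both ages in 8 (80%), against 37.3% of all genes. The exceptions were *Hspa5* in old ETP and *Hspd1* in young ETP. Among the chaperone lists described below, the share was 84.6% for cytosolic chaperonin and prefoldin genes and 77.8% for nucleotide exchange factors. It was 71.4% for HSP90 partners, 69.2% for mitochondrial folding genes and 0% to 50% in the other chaperone lists. The shift was thus not particular to the members. Ribosomal protein genes took 8.74% and 4.91% of fragments in old and 9.01% and 5.38% in young ETP, higher in replicate 1, and the nuclear RNA *Malat1* took 0.983% and 1.6% in old and 0.475% and 0.895% in young ETP, lower in replicate 1. Their part in the result was not tested. The median log2 difference of replicate 1 over replicate 2 was 0.47 in old and 1.02 in young ETP for the members, and −0.04 in old and 0.01 in young ETP for all genes. In young ETP *Hspa1a* differed by 3.90 and *Hspa1b* by 3.05, whereas 5% to 95% of all genes lay between −0.98 and 0.97. In old ETP the same genes differed by 0.32 and 0.07.

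Immediate-early genes, which are transcribed within minutes of a stimulus, were also higher in replicate 1 at both ages. All 20 of 20 tested had replicate 1 above replicate 2 at both ages, with a median log2 difference of 1.95 in old and 2.80 in young ETP. Their summed level was 4140 and 1366 CPM in old and 2559 and 288 CPM in young ETP. Old replicate 2 was thus below young replicate 1, whereas for *Hspa1a* plus *Hspa1b* it was above, at 152 against 83.6 CPM. In old ETP replicate 1 was 3.03 times replicate 2 for the immediate-early sum and 1.17 times for that pair. In young ETP replicate 1 was 8.89 times replicate 2 for the sum and 13.4 times for the pair. The sum does not stand for each gene: in 3 of the 20 (15%) both old libraries lay above both young ones, against 16.4% of all genes. *Nr4a1* was at 720 and 23.7 CPM in old and 539 and 10.7 CPM in young ETP, and *Klf6* at 440.5 and 243 CPM in old and 293 and 68.9 CPM in young ETP. Between the ages 19 of 20 had a higher estimate in old ETP, against 4739 of 10080 genes. Their median log2 fold change of 0.91 became −0.22 without old replicate 1, 0.24 without young replicate 2 and 3.11 without young replicate 1. Their part in the values of the inducible chaperones was not tested.

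**Figure D3:**
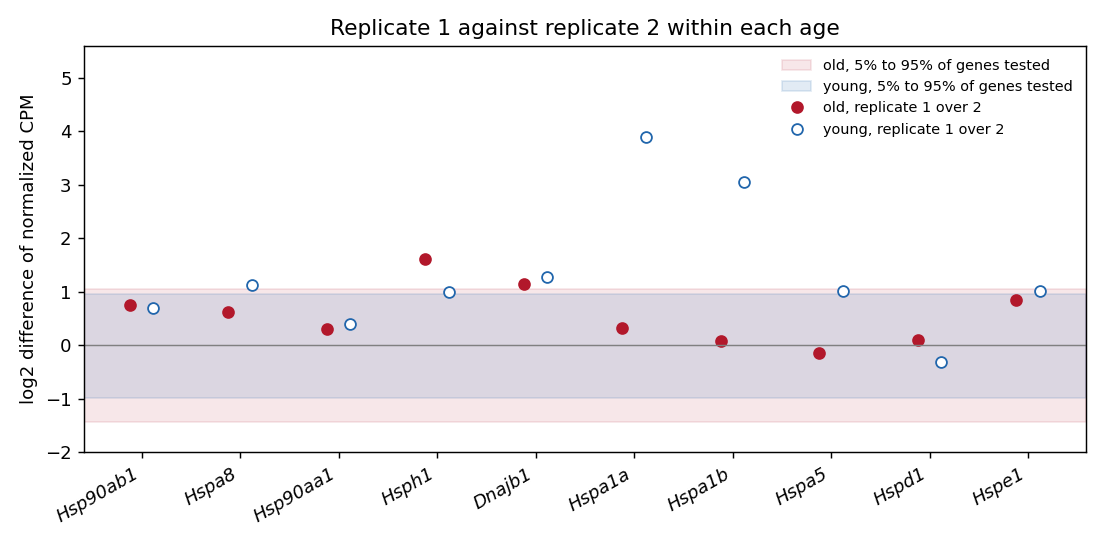
Log2 difference of normalized CPM, replicate 1 over replicate 2, for each member in old (filled) and young (open) ETP, with bands for 5% to 95% of the 10080 genes tested. *Hspa1a* at 3.90 and *Hspa1b* at 3.05 in young ETP lie far above the band.

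Set against the constitutive HSP70, the inducible pair was higher in both old libraries. The summed FPKM of *Hspa1a* and *Hspa1b* was 4.08% and 5.34% of that of *Hspa8* in old ETP, against 1.69% and 0.278% in young ETP. The mean log2 ratio was −4.42 ± 0.27 in old and −7.19 ± 1.84 in young ETP (SD, n = 2 each), a difference of 2.77 (exact two-sided permutation test p = 0.333). The difference was 1.46 without young replicate 2 and 4.07 without young replicate 1. With 2 libraries against 2 this test cannot go below 0.333, so the ages did not overlap but no call was possible. *Hspa8* itself was at 3181 and 2079 CPM in old and at 3595 and 1636 CPM in young ETP, with overlapping ages and a log2 fold change of 0.01 (SE 0.50, edgeR adjusted p = 1.00).

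In the HSP90 pair, both forms had a lower estimate in old than in young ETP, and neither passed the test. *Hsp90aa1*, the inducible form, was at 802 and 652 CPM in old ETP, against 1337 and 1017 CPM in young ETP, and the ages did not overlap. Its log2 fold change was −0.69 (SE 0.31), the lowest of the members, with edgeR adjusted p = 0.992. It kept its sign without each library in turn, between −0.86 and −0.51. *Hsp90ab1*, the constitutive form, was at 3995 and 2355 CPM in old and at 4505 and 2765 CPM in young ETP, with overlapping ages and a log2 fold change of −0.20 (SE 0.45, edgeR adjusted p = 1.00). Its sign depended on single libraries. The estimate was 0.14 without old replicate 2 and 0.18 without young replicate 1, but −0.63 without old replicate 1 and −0.48 without young replicate 2. The FPKM ratio of *Hsp90aa1* to *Hsp90ab1* was 0.174 and 0.241 in old and 0.258 and 0.32 in young ETP, a difference of −0.49 in log2 (exact two-sided permutation test p = 0.333).

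**Figure D4:**
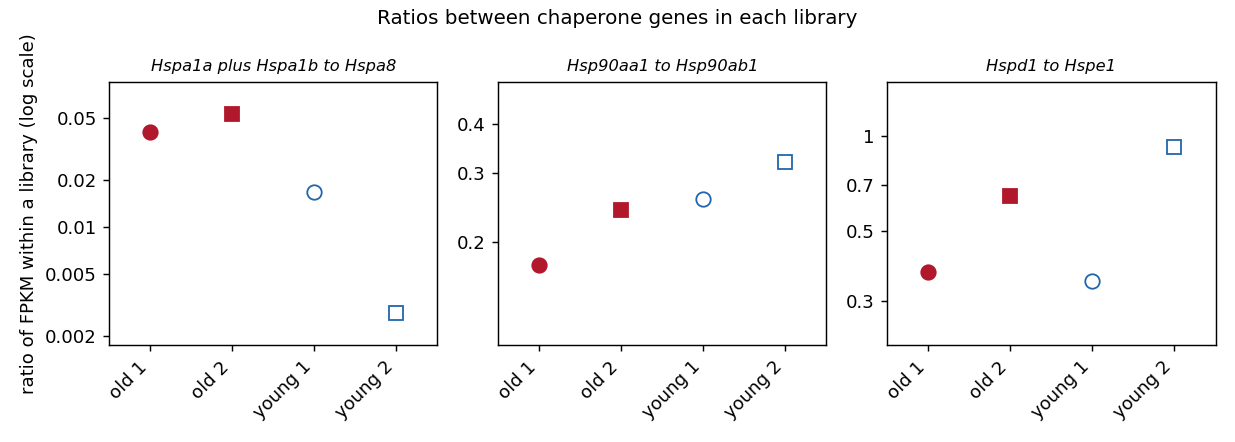
Ratios of FPKM within each library (log axes), old left of young. Both old libraries lie above both young ones for *Hspa1a* plus *Hspa1b* to *Hspa8* and below them for *Hsp90aa1* to *Hsp90ab1*, and the ages overlap for *Hspd1* to *Hspe1*.

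In the endoplasmic reticulum, *Hspa5* was at 1032 and 1134 CPM in old ETP and at 846 and 418 CPM in young ETP. Both old libraries were above both young ones. The log2 fold change was 0.78 (SE 0.41), a 1.71-fold higher mean in old ETP, with edgeR adjusted p = 1.00. It was 0.37 without young replicate 2 and 1.34 without young replicate 1.

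Other endoplasmic reticulum folding and stress genes leaned the same way without passing the test. Of 28 tested, 25 had a higher estimate in old ETP and 3 a lower one, against 4739 of 10080 genes higher and 5341 lower. By edgeR or DESeq2 0 were called, and the median log2 fold change was 0.55, against −0.03 for all genes. Both old libraries lay above both young ones in 15 of 28 (53.6%), against 16.4% of all genes, and below them in 0. At an unadjusted edgeR p under 0.05 there were 8, all higher in old ETP, against 4.46% of all genes higher and 0.942% lower. The median was between 0.46 and 0.58 without each library in turn. On the FPKM scale 22 of 28 were higher, with a median of 0.21 against −0.27 for all genes. The list was chosen with earlier results of these data known, so its counts are a description and not a test. *Sdf2l1*, which partners BiP, was at 38.1 and 78.1 CPM in old and at 21.6 and 18.0 CPM in young ETP, with a log2 fold change of 1.54 (SE 0.43, edgeR adjusted p = 0.582). *Hyou1*, the large HSP70 relative that exchanges the nucleotide of BiP, was at 178 and 189 CPM in old and at 124 and 104 CPM in young ETP.

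*Dnajb11*, a J-domain partner of BiP, was at 117 and 113 CPM in old and at 82.6 and 55.5 CPM in young ETP. *Hsp90b1* (GRP94), the HSP90 of this compartment, was at 573 and 1567 CPM in old and at 620 and 740.4 CPM in young ETP, so a single library carried its higher mean. *Canx*, the lectin chaperone calnexin, was at 508 and 591 CPM in old and at 535 and 599.9 CPM in young ETP. *Xbp1*, a transcription factor of the unfolded protein response named after its values were seen, was at 155 and 156 CPM in old and at 103 and 103 CPM in young ETP (log2 fold change 0.60, edgeR adjusted p = 0.919). Of the dendritic cell markers given above, 13 of 14 were also higher in both old libraries than in both young ones, and their part in these values was not tested.

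The mitochondrial pair differed little between the ages. *Hspd1* was at 351 and 327 CPM in old ETP, against 361 and 449.5 CPM in young ETP, both old libraries below both young ones, with a log2 fold change of −0.26 (SE 0.26, edgeR adjusted p = 1.00). *Hspe1* was at 242 and 134 CPM in old and at 261 and 128 CPM in young ETP, with a log2 fold change of −0.05 (SE 0.47, edgeR adjusted p = 1.00). Their FPKM ratio was 0.370 and 0.648 in old and 0.347 and 0.928 in young ETP (exact two-sided permutation test p = 1), higher in replicate 2 at both ages, and the ages overlapped. Other mitochondrial folding and protease genes had a lower estimate in old ETP in 12 of 13, against 5341 of 10080 genes, and 0 calls. The median of their log2 fold changes was −0.19, between −0.41 and −0.0043 without each library in turn. *Hspa9* (mortalin), the mitochondrial HSP70, was at 309 and 199 CPM in old and at 347 and 271 CPM in young ETP, and *Dnaja3*, its J-domain partner, at 32.1 and 27.9 CPM in old and at 41.0 and 38.7 CPM in young ETP.

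**Figure D5:**
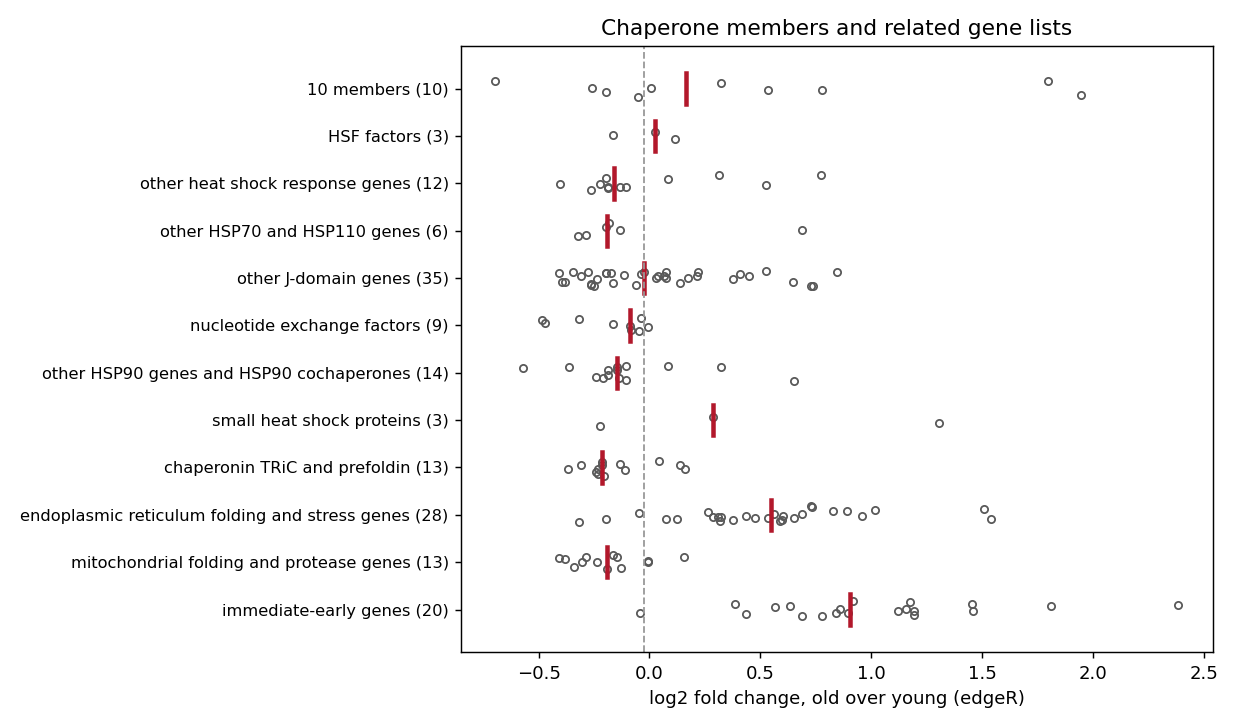
Log2 fold change, old over young (edgeR), of the tested genes of the members and of related lists, a circle for each gene, with the number tested in brackets, a bar at each median and a dashed line at the median of all genes. The endoplasmic reticulum and immediate-early lists have medians of 0.55 and 0.91, the members of 0.17 and the small heat shock proteins of 0.29, and the medians of the other lists lie between −0.21 and 0.02.

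The remaining chaperone lists had medians closer to that of all genes than the endoplasmic reticulum list did. *Hsf1*, the master activator of the heat shock genes, was at 85.5 and 83.4 CPM in old and at 90.2 and 75.8 CPM in young ETP. Other genes of the heat shock response, 12 tested of 15 listed, had a median log2 fold change of −0.16. Of these 4 were higher, 8 lower and 0 called, and the median was 0.07 without young replicate 1. *Bag3*, below the filter and named after its values were seen, was at 12.6 and 6.64 CPM in old and 2.71 and 1.71 CPM in young ETP. The ages overlapped in *Hspb1* and *Serpinh1*, the others below the filter. *Hspa4*, an HSP110 relative, was at 483 and 540.0 CPM in old and at 581 and 591 CPM in young ETP, and *Dnaja1*, a J-domain partner of HSC70, at 435 and 399 CPM in old and at 546 and 454 CPM in young ETP. Both were below young in both old libraries. *Dnajb4*, another J-domain gene, was above young in both, at 32.8 and 28.5 CPM in old and 21.2 and 21.5 CPM in young ETP.

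Of all genes tested, 5341 of 10080 had a lower estimate in old ETP. Other HSP70 and HSP110 genes were lower in 5 of 6, with a median of −0.19, between −0.24 and −0.07 without each library in turn. The exception was *Hyou1*, given above. Other J-domain genes divided evenly, 17 of 35 higher and 18 lower with a median of −0.02. Nucleotide exchange factors were lower in 9 of 9, with a median of −0.09, and HSP90 partners in 11 of 14, with a median of −0.15. Both medians turned with the library left out: they were 0.18 and 0.08 without old replicate 2 and 0.12 and 0.28 without young replicate 1, but −0.33 and −0.42 without old replicate 1 and −0.26 and −0.30 without young replicate 2. Among these partners *Ppid*, a peptidyl-prolyl isomerase, was at 121 and 168 CPM in old and at 176 and 253 CPM in young ETP. The cytosolic chaperonin and prefoldin genes were lower in 10 of 13, with a median of −0.21, which was 0.03 with old replicate 2 left out, 0.18 with young replicate 1 left out, −0.49 without old replicate 1 and −0.41 without young replicate 2. *Tcp1*, a subunit of that chaperonin, was at 486 and 414 CPM in old and at 614 and 549 CPM in young ETP. Of 10 small heat shock protein genes only 3 were expressed highly enough to test, and their median of 0.29 was −0.27 without old replicate 2 and 1.24 without young replicate 2. In each of these lists 0 genes were called by edgeR or DESeq2.

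*Hspa8* and *Hspa1b* were compared with all tested genes outside the 10 members by the Euclidean distance between centred log2 profiles over the 4 libraries. The nearest to *Hspa8* were *Yif1b* (0.0431), *Gm10094* (0.0573) and *Spg7* (0.0616). The nearest to *Hspa1b* were *Sgk1* (0.556), *Nlrp3* (0.566) and *Bhlhe40* (0.849). This distance grows with the range of a profile, which was wider for *Hspa1b*, so the distances of *Hspa8* and *Hspa1b* cannot be set against each other. *Sgk1*, a kinase gene, was at 36.5 and 25.2 CPM in old and at 20.1 and 1.24 CPM in young ETP, low in the same library as *Hspa1b*.

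Several members share sequence with other genes, which limits how surely their fragments were assigned. Of the 100-base windows of its transcript, *Hspa8* shared 63.4% with transcripts of other genes, *Hspa1a* 56.5%, *Hspa1b* 49.9%, *Hsp90aa1* 47.5%, *Hspd1* 26.9% and *Hspe1* 22.4%, and the other 4 members shared 0%. *Hspa1a* (chr17:34969190-34972156 in GRCm38) and *Hspa1b* (chr17:34956436-34959238) lie 9951 bases apart on the minus strand. Exons of *Hspa1a* share 564 bases with *Gm20481* on the other strand, and *Hspd1* and *Hspe1* overlap by 112 bases on opposite strands. Without strand, reads from such a pair cannot be told apart.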

How the data were processed

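ETP RNA was measured in 4 libraries. The authors aligned reads with STAR 2.3.0 to GRCm38 (mm10), and the notes of the submitters list DESeq 1.12.1, HTSeq 0.5.4p3, Cuffdiff and Cufflinks 2.1.1 besides. The authors' deposited table gives, per gene and library, estimated counts of fragments (95.7% to 96.1% whole within 1e-06) and FPKM, scaled by the authors for length. The FPKM kept a difference in depth, summing to 122998 to 281542. The 1 column of scaled fragments was not used. Strand use and the handling of reads with several alignments are not given in the sources used here.

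Estimated counts were rounded, scaled by TMM and compared with edgeR 4.0.16 (R 4.3.3) by the quasi-likelihood test with a term for age alone, and p-values were adjusted after Benjamini and Hochberg (threshold 0.05). Genes entered the test if their FPKM reached 1 in 2 or more libraries, which left 10080. The test had been planned for either unit. Ratios were compared by exact permutation. A count of 0 allows 3 counts, or 0.177 to 0.664 CPM, for counting error only, and PCR copies are not independent molecules. Alternatives were DESeq2 1.42.0, limma 3.58.1 on log2(FPKM + 1) and log2(FPKM + 0.1), other scalings and filters, a term for the replicate number, and dropping each library in turn. The edgeR steps were tested on simulated data.

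Members and lists were chosen with earlier results of these data known. The rule named all members, and from each list the 2 tested genes with the highest mean and the 1 with the smallest p. Promoters come from RefSeq (GRCm38.p6) and gene positions from GENCODE (GRCm38).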

Additional observations from a re-analysis of the deposited data

How the results depend on the processing

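The count of genes called moved with the tool and the filter: against 0 with edgeR, DESeq2 called 210 higher and 15 lower in old ETP, edgeR with no filter 474 and 34, and leaving out a library gave 0 to 218 higher and 0 to 3 lower, with 218 and 3 without old replicate 1. The members' median log2 fold change was −0.32 without old replicate 1 and 0.78 without young replicate 1, the ends of its range. *Hspa8* changed sign under upper quartile scaling (−0.023), on log2(FPKM + 1) (−0.21) and on log2(FPKM + 0.1) (−0.21), and *Hsph1* on the FPKM scales (−0.083 and −0.10). On log2(FPKM + 1) the median of all genes was −0.27 and that of the members −0.15. Leaving out each library gave −0.42 to 0.66 for *Hspa8*, −0.63 to 0.18 for *Hsp90ab1*, −0.70 to 0.91 for *Hsph1*, −0.16 to 1.31 for *Dnajb1* and −0.54 to 0.53 for *Hspe1*. It gave log2 ratio differences of −0.72 to −0.25 for *Hsp90aa1* to *Hsp90ab1*, 1.46 to 4.07 for *Hspa1a* plus *Hspa1b* to *Hspa8*, and −0.92 to 0.50 for *Hspd1* to *Hspe1*. *Hspa1a*, *Hspa1b*, *Hspa5*, *Hsp90aa1* and *Hspd1* kept their sign in all alternatives run. The cause of these shifts was not tested. With 2 libraries for each age, 1 library can set a value.

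The labels do not say what a replicate number marks, so the libraries share only a number. Deviations of same-numbered libraries from the age means correlated at 0.73 over 10080 genes. With the replicate block edgeR called 399 genes higher and 82 lower in old ETP, and 1 of the 10 members, *Hsp90aa1* (log2 fold change −0.69, adjusted p = 0.0137). It also called 4 of the 28 endoplasmic reticulum genes, all higher in old ETP, and 0 genes of the other chaperone lists. Within replicate block number 1 the log2 ratio of *Hspa1a* plus *Hspa1b* to *Hspa8* differed by 1.27, and within number 2 by 4.26.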
